A study of Mus musculus with 195 samples.

Results

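The tubulin genes described here are 10 members of one gene family: the α-tubulin genes Tuba1a, Tuba1b and Tuba1c, the β-tubulin genes Tubb2a, Tubb2b, Tubb3, Tubb4b, Tubb5 and Tubb6, and the γ-tubulin gene Tubg1. They were taken by name from the deposited table of gene counts, and all 10 were found among the 19412 genes with a molecule in the single mouse cells compared. The counts came from BATSeq, in which a unique molecular identifier (UMI) and a cell barcode are added at the poly-A tail. Each transcript molecule that is captured and sequenced is thus counted once. It is assigned to the polyadenylation (PA) site at which it ends. By the paper's estimate, most RNA molecules of a cell were not observed. Molecule numbers given below are observed counts, and a transcript that was not counted may still have been present in the cell. A molecule gives 1 count whatever its length, so levels of different genes can be compared without a correction for length, within the limit that reads with more than 1 place in the genome were left out.

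All populations came from the 46C line, mouse embryonic stem cells derived from E14tg2a that carry GFP at Sox1. The embryonic stem cells were grown on gelatin. ESC-2i cells were kept in serum-free medium in which 3 μM of the GSK3 inhibitor CHIR99021, 1 μM of the MEK inhibitor PD0325901 and LIF were present. ESC-FCS cells were kept in 10% serum, and LIF was used at 10 ng/ml in both media. Neural stem cells (NSC) were derived from the same line by monolayer differentiation on gelatin in N2 and B27 medium and sorted once for GFP. They were then seeded on laminin and expanded in EGF and bFGF until GFP was lost. From each population 48 small cells in G0/G1 were sorted by DNA content and size, and prepared in 2 library batches of 24 cells with a batch barcode each. Of these, the cells in the deposited gene table with at least 1000 molecules on genes were used, which were 33 of ESC-2i, 33 of ESC-FCS and 41 of NSC. Libraries prepared separately were a further 48 single ESC-FCS cells (called ESC-FCS control, 42 used), 1 pool of 48 ESC-FCS cells made on the same day as these, and 2 pools of 48 ESC-2i cells each. The ESC-2i pools were sorted into buffer RLT and their RNA was purified on beads, whereas single cells were lysed directly.

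No replicate culture was named, so each population was taken as 1 culture, and its library batches were not shared with another population, so culture, batch and population cannot be told apart and no test between populations was made. Levels are molecules of a gene per 10000 molecules on genes, summed over the cells of a group, with exact Poisson 95% intervals. Shares have exact Clopper-Pearson 95% intervals. All of these intervals cover counting error only. A gene was called higher or lower when its levels differed by more than 2-fold with at least 20 molecules over both groups. In the median NSC cell 3282 molecules were counted, against 6375 in ESC-FCS and 10864 in ESC-2i. The 24 cell barcodes were reused over 192 single-cell libraries. No pair of cell and batch barcodes was shared among the cells compared, but 48 pairs occurred in both an ESC-2i and an ESC-FCS control library. Summed markers of pluripotent and neural stem cells followed the labels. A list of 10 pluripotency genes summed to 0.198 per 10000 in NSC, against 35.2 in ESC-2i and 30.3 in ESC-FCS. A list of 11 neural stem cell genes summed to 52.3 in NSC, with Pax6 at 0, against 3.56 and 3.93. A list of 10 neuronal markers summed to 4.67 per 10000 in NSC, against 2.55 and 5.51. In NSC 59 of the 71 neuronal marker molecules were Map2, and Snap25, Stmn2, Neurod1 and Elavl3 were at 0. Stmn2 gave 93 of the 94 neuronal marker molecules in ESC-2i and 100 of the 125 in ESC-FCS. The pluripotency genes summed to 38.8 and 38.3 per 10000 in the ESC-2i pools and 41.5 in the ESC-FCS pool. Dppa5a was at 0 in each pool, and Pou5f1 was at 0 in the ESC-FCS pool.

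Microtubules are hollow polymers of α- and β-tubulin dimers. Mammals carry several genes for each, called isotypes, whose proteins are nearly identical over most of their length and differ mainly in the acidic tail. Tuba1a, Tubb2b and Tubb3 are best known from developing neurons, where mutations disturb cortical layering, while Tuba1b, Tuba1c, Tubb4b and Tubb5 are used by most dividing cells. γ-tubulin does not enter the polymer wall but nucleates microtubules at the centrosome.

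The sites shown lie in the 3′ UTR of their genes. For the genes on which the results turn, the 30 bases that end at the PA site are given as read from the GENCODE M21 transcripts (GRCm38), 5′ to 3′ on the strand of the gene, and AATAAA or ATTAAA, the hexamers best known to place the cleavage site, is in capitals where it occurs. The first lines are the α-tubulin genes, whose proportions differed between the populations.
Tuba1a, chr15:98949842-98949871, minus strand: tatgggttttaAATAAAatactccctgtct
Tuba1b, chr15:98931436-98931465, minus strand: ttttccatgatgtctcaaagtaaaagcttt
Tuba1c, chr15:99038080-99038109, plus strand: tgtcAATAAAggtgtttccgttgtaagttg
The β-tubulin genes follow, with the 2 sites that held 98.8% of Tubb5 molecules in the cells and, of the 13 sites seen in Tubb2b, its main site and the distal site used in the ESC-FCS pool.
Tubb5 proximal site, chr17:35834807-35834836, minus strand: ggcaggcactcAATAAAtatttgtttgtgg
Tubb5 distal site, chr17:35833926-35833955, minus strand: gccccagagccaaaAATAAAtgggaattgg
Tubb2b main site, chr13:34127224-34127253, minus strand: atggctaaaatcacataaacctttgtgtcc
Tubb2b distal site, chr13:34126997-34127026, minus strand: acaatggattttaagatgtcctttggtaca
Tubb4b, chr2:25222163-25222192, minus strand: agataccaccATTAAAgcaattcatagtgt
Only these hexamers were searched, on the strand of the transcript. Neither was found in the windows of Tuba1b and of the Tubb2b sites shown. Over the most used sites of all genes with at least 20 molecules whose window could be read, AATAAA occurred in 68.3% of 5579 windows and ATTAAA without it in a further 15.3%. Tuba1a, Tuba1b and Tuba1c lie close to each other on chromosome 15, Tuba1c on the opposite strand, and Tubb2a and Tubb2b are neighbours on chromosome 13.

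The 10 genes together made up 30.6 molecules per 10000 in ESC-2i (28.8 to 32.4, 1126 molecules), 41.8 in ESC-FCS (39.2 to 44.6, 948 molecules) and 29.0 in NSC (26.4 to 31.9, 441 molecules). Relative to all molecules, the sum thus differed by less than 2-fold between the populations. When scaled to the spike-ins, as below, ESC-FCS stood further above both other populations, and the sum did not stay within this limit. The members differed in direction beneath that sum. In NSC against ESC-2i, Tuba1a and Tubb2b were called higher and Tuba1b, Tuba1c and Tubb4b lower, out of 9 members with enough molecules. Over all 4803 genes with enough molecules, 19.3% were called higher and 24.3% lower in this comparison. The same 5 genes were called in the same directions in NSC against ESC-FCS, out of 6 members with enough molecules, where 20.9% of all genes were called higher and 18.4% lower. The NSC cells are shared by these comparisons. In ESC-FCS against ESC-2i, Tuba1a was called higher and Tubb2a and Tubg1 lower, of 9 members, with 8.17% of all genes higher and 14.5% lower.

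Levels per 10000 molecules are relative to the total. When molecules were scaled to the ERCC spike-ins of the cells instead, the median log2 ratio of all genes became -0.35 in NSC against ESC-2i, -1.30 in NSC against ESC-FCS and 0.98 in ESC-FCS against ESC-2i, from -0.05, 0.05 and -0.07. The numbers of genes called higher and lower became 645 and 1492, 212 and 2198, and 2472 and 172, from 927 and 1168, 752 and 663, and 409 and 725. The changes of the members are given relative to all molecules unless the spike-in scale is named. Which scale lies closer to the RNA content of the cells was not tested. On the spike-in scale 5 of 9 members were called higher in ESC-FCS against ESC-2i, where 2472 of all 5007 genes were: Tuba1a (log2 ratio 2.33), Tuba1b (1.84), Tubb5 (1.55), Tuba1c (1.28) and Tubb4b (1.24). In NSC against ESC-FCS, 0 were higher and 4 of 6 lower, Tubb5 (-1.55) in addition to Tuba1b, Tuba1c and Tubb4b.

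**Figure D1:**
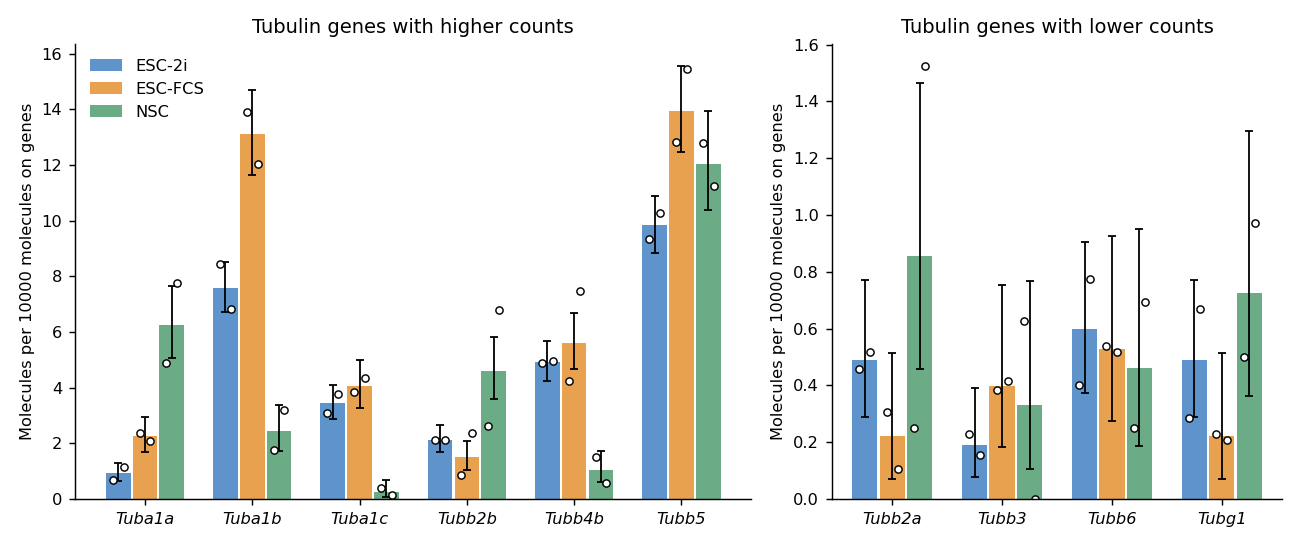
Levels of the 10 tubulin genes in single cells of ESC-2i, ESC-FCS and NSC, in molecules per 10000 molecules on genes; bars are the sum over cells, lines the exact Poisson 95% interval and open circles the 2 library batches. Tuba1a and Tubb2b stand highest in NSC, where Tuba1b, Tuba1c and Tubb4b stand lowest, and Tubb5 lies between 9.83 and 13.9 in all 3 populations.

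Tuba1a, the α-tubulin gene of migrating and differentiating neurons, was the α-tubulin gene with the highest level in NSC. It stood at 0.923 per 10000 in ESC-2i (0.639 to 1.29), 2.25 in ESC-FCS (1.68 to 2.96) and 6.26 in NSC (5.06 to 7.65). Library batches read 0.688 and 1.13 in ESC-2i, 2.38 and 2.07 in ESC-FCS, and 4.89 and 7.77 in NSC, so that the batches of the populations did not overlap. A cell of NSC held 0 to 7 Tuba1a molecules with a median of 2, against 0 to 4 in ESC-2i and 0 to 8 in ESC-FCS with a median of 1 in each. The level in NSC was 6.78-fold that in ESC-2i cells (4.54 to 10.3) and 2.78-fold that in ESC-FCS (1.96 to 3.99). The separately prepared ESC-2i pools, described below, stood at 7.01 and 8.27 per 10000, not below NSC. A high Tuba1a level was therefore not particular to NSC among these libraries. ESC-FCS exceeded ESC-2i by 2.44-fold (1.55 to 3.88). Scaled to spike-ins, the log2 ratio of NSC to ESC-FCS was 0.13, no longer a call. In the second batches alone the log2 ratio of ESC-FCS to ESC-2i was 0.87, and with cells weighted equally 0.98, also short of one.

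Tuba1b, the α-tubulin gene most used in many cell types, was lowest in NSC. It stood at 7.57 per 10000 in ESC-2i (6.71 to 8.52), 13.1 in ESC-FCS (11.7 to 14.7) and 2.44 in NSC (1.72 to 3.36). Library batches read 8.43 and 6.81, 13.9 and 12.0, and 1.75 and 3.19, again without overlap. Cells held 0 to 25 molecules in ESC-2i with a median of 8, 1 to 28 in ESC-FCS with a median of 6 and 0 to 6 in NSC with a median of 0. NSC was 3.11-fold below ESC-2i (2.20 to 4.51) and 5.38-fold below ESC-FCS (3.81 to 7.79). The ESC-FCS level was 1.73-fold that of ESC-2i (1.46 to 2.04), short of the call, but past it when scaled to spike-ins (log2 ratio 1.84) and in reads (1.13). Tuba1c, whose protein differs little from that of Tuba1b, was rarely counted in NSC. Its level was 3.45 per 10000 in ESC-2i (127 molecules), 4.06 in ESC-FCS (92 molecules) and 0.263 in NSC, where 4 molecules were seen in 4 of 41 cells. This put NSC 13.1-fold below ESC-2i (4.99 to 48.8) and 15.4-fold below ESC-FCS (5.82 to 57.8), and ESC-FCS stood 1.18-fold above ESC-2i (0.890 to 1.55), a log2 ratio of 1.28 when scaled to spike-ins. The last bases of these α-tubulin genes occur in part in related genes and pseudogenes, and reads with more than 1 place in the genome were left out by the authors, so that their levels against each other are uncertain.

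The make-up of the α-tubulin transcripts therefore differed more than their sum. Tuba1a, Tuba1b and Tuba1c together reached 11.9 per 10000 in ESC-2i (10.9 to 13.1), 19.4 in ESC-FCS (17.6 to 21.3) and 8.95 in NSC (7.51 to 10.6). This sum was itself past the 2-fold limit in NSC against ESC-FCS, lower by 2.17-fold (1.78 to 2.65). Against ESC-2i it was 1.33-fold lower (1.10 to 1.63). Of the molecules in this sum Tuba1a was 7.73% in ESC-2i (5.41 to 10.6, of 440 molecules), 11.6% in ESC-FCS (8.75 to 15.0, of 440) and 69.9% in NSC (61.4 to 77.4, of 136). The NSC batches gave 69.6% and 70.0%, against 5.63% and 9.69% in ESC-2i and 11.8% and 11.2% in ESC-FCS. Tuba1b was 63.4% and 67.5% of α-tubulin molecules in the ESC populations and 27.2% in NSC. Tuba1c was 28.9%, 20.9% and 2.94%. The same ordering was visible cell by cell. More Tuba1a than Tuba1b molecules were counted in 1 of 33 ESC-2i cells, 2 of 33 ESC-FCS cells and 28 of 41 NSC cells. More Tuba1b was counted in 31, 30 and 5 cells, and in 6 NSC cells none of the 3 transcripts was counted. Both genes were seen together in 18 ESC-2i, 19 ESC-FCS and 16 NSC cells. The NSC cells were shallower, so the share of cells expected to show a gene in a draw of 1000 molecules per cell was also computed. For Tuba1a this expected share was 46.4% in NSC, against 9.11% in ESC-2i and 16.9% in ESC-FCS. At full depth 33 of 41, 19 of 33 and 19 of 33 cells had it. For Tuba1b the expected shares were 17.5%, 49.0% and 68.4%, and at full depth 17 of 41, 32 of 33 and 33 of 33 cells had it. The neural stem cell markers, which ran from 3.56 and 3.93 per 10000 in the ESC populations to 52.3 in NSC, moved with this change, and 5 astrocyte markers moved with it too, from 0.733 and 2.82 to 16.1 with Gfap, Aqp4 and S100b at 0 in NSC. Their part in the result was not tested.

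**Figure D2:**
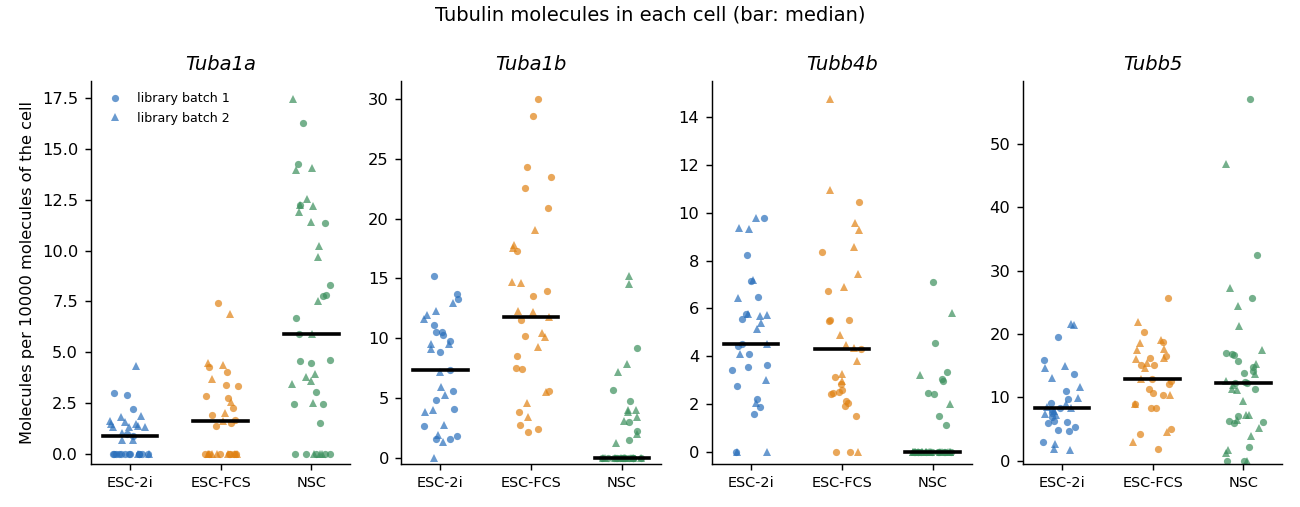
Tuba1a, Tuba1b, Tubb4b and Tubb5 in each cell, in molecules per 10000 molecules of that cell; circles are library batch 1, triangles library batch 2 and black bars the median over cells. Tuba1b and Tubb4b have a median of 0 in NSC, where the Tuba1a median is 5.87, and the Tubb5 medians are 8.28, 12.9 and 12.2.

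Among the β-tubulin genes, Tubb5 was the most abundant in each population. It stood at 9.83 per 10000 in ESC-2i (8.84 to 10.9), 13.9 in ESC-FCS (12.4 to 15.6) and 12.0 in NSC (10.4 to 13.9). Cells of the 3 populations held 1 to 45, 1 to 24 and 0 to 17 molecules, with medians of 10, 8 and 4. Tubb5 was not called between the populations on this scale, but it was in 2 of the 3 comparisons when scaled to spike-ins. Its level in NSC was 1.23-fold that in ESC-2i (1.02 to 1.47), a log2 ratio that became -0.0024 when scaled to spike-ins, and 1.16-fold below that in ESC-FCS (0.961 to 1.40), where the spike-in scale gave -1.55. ESC-FCS stood 1.42-fold above ESC-2i (1.22 to 1.65), with a log2 ratio of 1.55 on the spike-in scale.

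Tubb4b, a β-tubulin gene used in most tissues and in cilia, ranked second in the ESC populations and was lower in NSC. Its level was 4.91 per 10000 in ESC-2i (4.22 to 5.68), 5.60 in ESC-FCS (4.67 to 6.67) and 1.05 in NSC (0.602 to 1.71). Batches read 4.87 and 4.95, 4.22 and 7.47, and 1.505 and 0.555. NSC was 4.66-fold below ESC-2i (2.80 to 8.33) and 5.32-fold below ESC-FCS (3.15 to 9.59). Cells held 0 to 15, 0 to 16 and 0 to 3 molecules, with medians of 4, 2 and 0. ESC-FCS stood 1.14-fold above ESC-2i (0.902 to 1.44), a log2 ratio of 1.24 when scaled to spike-ins. Tubb2b, a β-tubulin gene of the developing brain, was higher instead. It stood at 2.12 per 10000 in ESC-2i (1.67 to 2.64) and 4.61 in NSC (3.59 to 5.82), and its 34 molecules in ESC-FCS gave an interval from 1.04 to 2.10. The NSC level was 2.18-fold that in ESC-2i (1.55 to 3.04) and 3.07-fold that in ESC-FCS (2.01 to 4.78). The 2 NSC batches differed, with 2.63 and 6.80 per 10000. In the first batches alone the log2 ratio of NSC to ESC-2i was 0.31, and with median-ratio size factors 0.93, short of the call. Scaled to spike-ins the log2 ratios were 0.83 to ESC-2i and 0.28 to ESC-FCS, also short of it. ESC-FCS stood 1.41-fold below ESC-2i (0.932 to 2.18), but the log2 ratio of -0.50 turned to 0.55 when scaled to spike-ins and to 0.09 in reads, and was -1.33 in the first and 0.17 in the second batches alone.

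The remaining β-tubulin genes were rare. Tubb2a stood at 0.489, 0.221 and 0.856 per 10000 in ESC-2i, ESC-FCS and NSC, from 18, 5 and 13 molecules. Its lower call in ESC-FCS against ESC-2i was 2.22-fold, with an interval from 0.793 to 7.63 that includes no difference, and scaled to spike-ins its log2 ratio was -0.10. In NSC, 11 of its 13 molecules were in the second batch. Tubb6 stood at 0.597, 0.529 and 0.461, without a call. Tubb3, the class III β-tubulin by which neurons are commonly stained, gave 7, 9 and 5 molecules (0.190, 0.397 and 0.329 per 10000), too few for a call between any of them, and in NSC all 5 came from the first batch. As shares of the 6 β-tubulin genes, Tubb5 was 54.2%, 62.8% and 62.2%, Tubb4b 27.1%, 25.2% and 5.44%, and Tubb2b 11.7%, 6.76% and 23.8% of 668, 503 and 294 molecules. The β-tubulin sum was 19.4 per 10000 in NSC, beside 18.1 and 22.2 in the ESC populations. Tubg1, the γ-tubulin gene, stood at 0.489, 0.221 and 0.724 per 10000 from 18, 5 and 11 molecules. Its lower call in ESC-FCS had the same counts, fold and interval as that of Tubb2a, and its log2 ratio was -0.10 when scaled to spike-ins and -0.57 in reads.

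**Figure D3:**
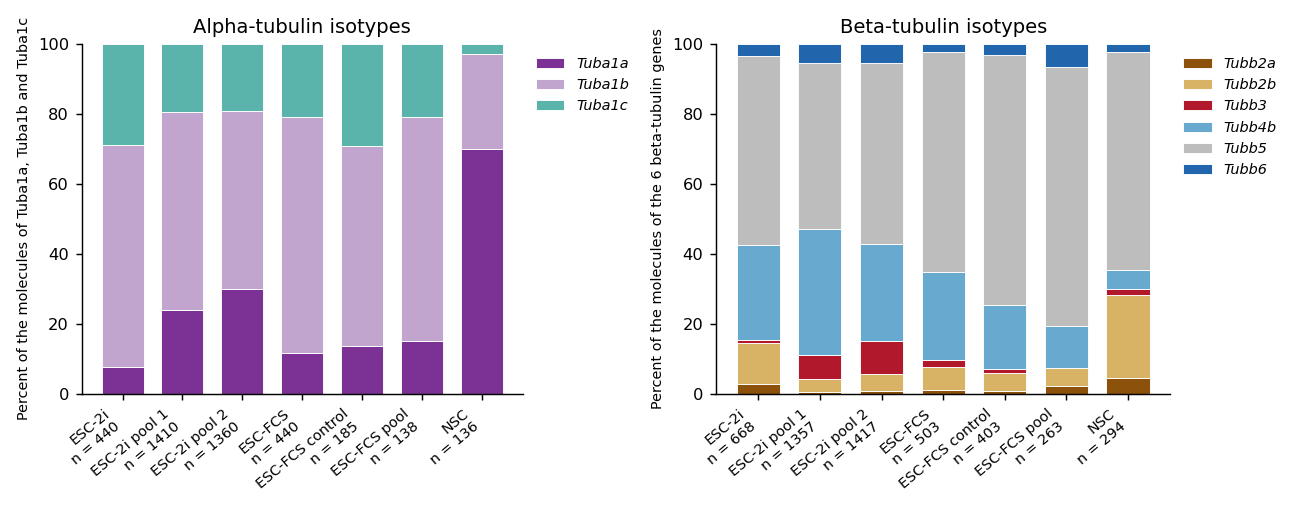
Share of each isotype among the molecules of the 3 α-tubulin genes (left) and of the 6 β-tubulin genes (right), in percent, in single cells, control cells and pools; n is the number of molecules. Tuba1a makes up 69.9% of the α-tubulin molecules in NSC and 7.73% to 30.1% in the embryonic stem cell groups.

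Of the other tubulin genes, only Tuba4a reached 20 molecules over the cells. It gave 1 molecule in NSC, against 27 in ESC-2i and 26 in ESC-FCS, and NSC was below ESC-2i by 11.1-fold with a counting interval from 1.83 to 456. The genes that fold, organise and modify tubulin were read from lists, and each list was described by its counts beside the 19.3% and 24.3% of all genes called in NSC against ESC-2i. Prefoldin, the chaperonin CCT and the tubulin cofactors, which fold tubulin and join it into dimers, gave 2 higher and 2 lower of 19, with a median log2 ratio of 0.02 against -0.05 over all genes. Cct8, a CCT subunit, was 2.01-fold higher (1.58 to 2.55), and Tbcc, a cofactor of the last folding step, was lower at 2 against 21 molecules, a ratio of 4.33 (1.06 to 38.1). Tbcd, a cofactor that acts with it, was 2.06-fold lower (0.844 to 6.06), and Pfdn4, a prefoldin subunit, was 2.02-fold higher (0.782 to 5.10), with intervals that include no difference. Among microtubule-associated proteins 4 were higher and 1 lower of 12, with a median log2 ratio of 0.26. Map2, which stabilizes microtubules of dendrites, gave 59 molecules in NSC and 0 in ESC-2i. With the 0 set to 3 counts it was 47.7-fold higher, with a lower interval limit of 37.6. Map1b, another microtubule-associated protein, was 4.50-fold higher (2.59 to 8.06). Stmn2, a stathmin that destabilizes microtubules, gave 0 molecules in NSC and 93 in ESC-2i. With the 0 set to 3 counts it was 12.8-fold lower, with a lower interval limit of 10.2. Map7d1 was 4.28-fold higher (2.29 to 8.27).

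Of the enzymes that modify tubulin, 4 were higher and 2 lower of 8, with a median log2 ratio of 1.02. Vash1, which removes the last tyrosine of α-tubulin, gave 69 molecules in NSC against 1 in ESC-2i and 1 in ESC-FCS, a ratio to ESC-2i of 167 with a counting interval from 29.1 to 6705. The tubulin deacetylases differed in direction: Sirt2 was 5.46-fold higher (2.67 to 11.8) and Hdac6 5.03-fold lower (2.04 to 16.0). Agtpbp1, which shortens glutamate chains of tubulin, gave 3 molecules against 23, a ratio of 3.16 below ESC-2i with an interval from 0.955 to 16.4. The γ-tubulin ring complex, which nucleates microtubules, had 2 genes with enough molecules, of which Mzt2 was 2.43-fold higher (1.04 to 5.68) and Tubgcp4 was not called at 1.46-fold (0.562 to 3.55). Of 3 genes known to act in tubulin autoregulation, by which free tubulin lowers its own mRNA, 1 had enough molecules: Scaper gave 2 in NSC and 18 in ESC-2i, a ratio of 3.71 with an interval from 0.888 to 33.0. In NSC against ESC-FCS, 0 of 18 genes of the folding list were called, 4 microtubule-associated proteins were higher and 2 lower of 10, and 2 modifying enzymes were higher and 1 lower of 5. In ESC-FCS against ESC-2i these lists gave 2 higher and 2 lower of 19, 4 and 0 of 12, and 1 and 1 of 6. Over all genes, 20.9% were called higher and 18.4% lower in the first of these comparisons, and 8.17% and 14.5% in the second.

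The separate ESC-FCS libraries gave levels for the same medium in another preparation. In the ESC-FCS control cells, Tuba1a stood at 1.12 per 10000 (0.725 to 1.65), Tuba1b at 4.75 (3.89 to 5.75) and Tubb5 at 12.9 (11.5 to 14.5). Of 7 members with enough molecules, 2 were called lower than in the ESC-FCS cells and 0 higher, while 9.23% of all 4064 genes were called lower and 15.9% higher. The lower ones were Tuba1a, by 2.01-fold (1.22 to 3.38), and Tuba1b, by 2.76-fold (2.20 to 3.47). The Tuba1b difference between these preparations of 1 medium was thus larger than the 1.73-fold between ESC-FCS and ESC-2i. The control cells' Tuba1a level of 1.12 stood beside 0.923 in ESC-2i, which the ESC-FCS cells exceeded by 2.44-fold. The Tuba1a share of α-tubulin was 13.5% in the control cells (8.94 to 19.3), beside 11.6% in ESC-FCS. The ESC-FCS pool of 48 cells, made on the same day as the control cells, stood at 1.17 for Tuba1a, 4.91 for Tuba1b, 1.79 for Tubb4b and 10.9 for Tubb5. None of 7 members was called between this pool and the control cells, where 11.2% of all genes were called higher and 4.29% lower. Tubb4b came closest, 1.86-fold lower in the pool (1.21 to 2.91). In pools, fewer cells with a transcript and less of it per cell cannot be told apart.

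The ESC-2i pools held more tubulin molecules per 10000 than the ESC-2i cells, with 58.5 and 57.1 against 30.6 for the sum of the 10 genes. Tuba1a stood at 7.01 (6.28 to 7.80) and 8.27 (7.48 to 9.11) in the pools, 7.59-fold and 8.96-fold the level in cells. The NSC level was 6.26 (5.06 to 7.65). Tubb3 stood at 1.92 and 2.69, from 92 and 133 molecules, which was 10.1-fold (4.71 to 25.8) and 14.1-fold (6.68 to 35.9) the level of the cells. Tubb6 was 2.58-fold and 2.64-fold higher. In pool 1 Tuba1b (2.20-fold) and Tubb4b (2.08-fold) were also called higher, and Tubb2a lower by 2.93-fold, so that 5 of 10 members were higher and 1 lower there, and 3 and 0 in pool 2. Over all genes 36.1% were called higher and 16.1% lower in pool 1, and 42.3% and 18.2% in pool 2, so that many genes were called beside the members. Tuba3a, chosen after its values were seen, gave 64 and 70 molecules in the pools and 5 in the cells. Between the pools, none of the 10 members was called in pool 2 against pool 1, where 7.73% of all genes were called higher and 9.35% lower. The neuronal markers summed to 2.96 and 2.18 per 10000 in the pools and 2.55 in the cells, with 10, 8 and 2 of the 10 seen. Their part in the Tubb3 and Tuba1a levels was not tested. Pools and cells differed in lysis and RNA purification, as given above, which cannot be told apart from other differences between them.

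**Figure D4:**
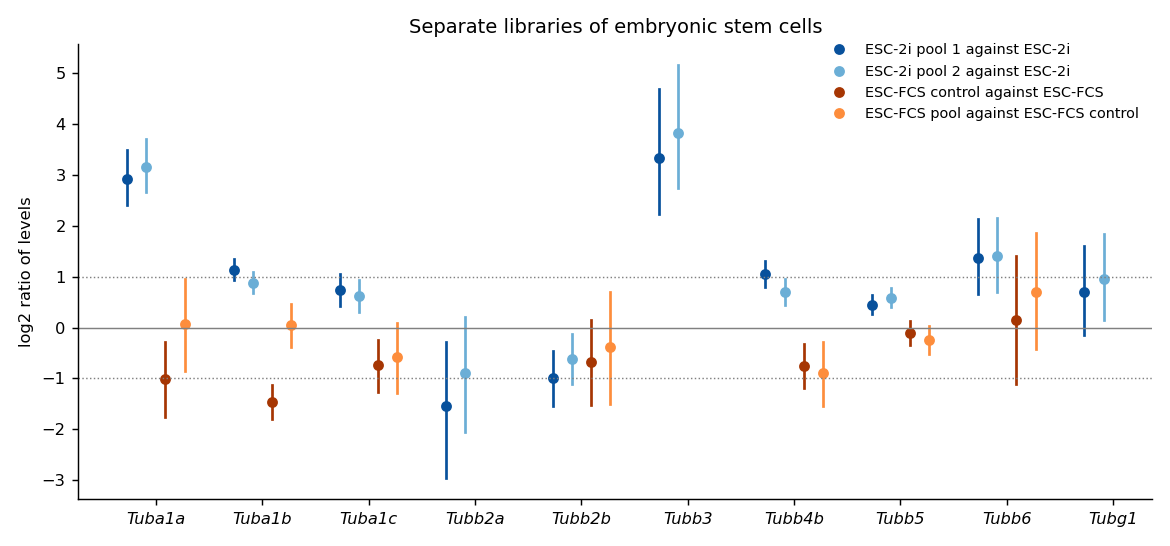
Log2 ratios of tubulin levels between separately prepared libraries of embryonic stem cells, for members with at least 20 molecules over both groups; points are the ratio, vertical lines the 95% counting interval, dotted lines mark 2-fold. Tuba1a and Tubb3 lie furthest above 0 in both ESC-2i pools, and Tuba1b lies lowest among the members of the ESC-FCS control cells against ESC-FCS.

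Variability between cells was tested against the spike-ins in each population, with the cells of 1 culture as units. The test of Brennecke and colleagues was fitted over all genes with a normalized mean above 0.5, and a gene counted as variable when its squared coefficient of variation exceeded the technical one by more than 0.25 at an adjusted p (Benjamini-Hochberg) below 0.1. Of 7, 6 and 4 members tested in ESC-2i, ESC-FCS and NSC, 0 were called, while 0.608%, 3.36% and 10.7% of all genes tested were. The lowest adjusted p of a member was 0.234 in this test, for Tubb5 in NSC, followed by 0.263 for Tuba1b and 0.303 for Tubb2b in NSC. At an unadjusted p below 0.05, 0 members passed in the ESC populations, where 93 of 3616 and 159 of 2026 genes did, and 2 in NSC, Tuba1b and Tubb5, where 196 of 1157 genes did. In NSC this number was 0 with a margin of 0.5, with all spike-in species, with cells of at least 2000 molecules, in the second batch alone and with antisense spike-in molecules counted. In NSC, Tubb5 had a squared coefficient of variation of 0.744 against a technical 0.262, and in ESC-FCS 0.200 against 0.208.

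Correlations between members across cells are given as descriptions, and all genes of a cell share its library, depth and total. Tuba1b and Tubb5, the main α- and β-tubulin genes of the ESC populations, had the highest Pearson r of the members in ESC-2i, 0.70 over 33 cells, and 0.33 in ESC-FCS. The other pairs of members with a mean of at least 1 molecule per cell ran from -0.26 (Tubb2b and Tubb4b) to 0.41 (Tuba1b and Tubb4b) in ESC-2i. In ESC-FCS the range was -0.12 to 0.38. In NSC the 3 pairs over 41 cells had r = 0.37 (Tuba1a and Tubb2b, both with a higher level in the second library batch), 0.26 (Tuba1a and Tubb5) and -0.17 (Tubb2b and Tubb5). Over the 8 library batches of single cells, the genes with levels most like Tubb4b among 519 genes were Ifitm3 (r = 0.97), Tuba1c (0.96) and Tpi1 (0.95). For Tuba1b they were Rpl18 (0.96), Rpl41 (0.96) and Sod1 (0.92), and for Tubb5 Tpt1-ps3 (0.96), Eif4g2 (0.86) and Ran (0.86). The batches fall into 4 groups, so that few independent levels stand behind each r.

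Most tubulin transcripts ended at a single site. Tuba1a, Tuba1b, Tuba1c and Tubb4b had at least 94.1% of their molecules at the sites printed above in ESC-2i and ESC-FCS. In NSC, all 95 Tuba1a, 37 Tuba1b and 16 Tubb4b molecules ended there, and 3 of 4 Tuba1c molecules. Among the genes with sites printed above, Tubb2b, described below, and Tubb5 had lower shares at their most used sites, 89.7% and 89.5% in ESC-2i. The proximal site of Tubb5 lies 175 bases after the stop codon and its distal site 1056 bases after it, and both windows hold AATAAA. The distal site took 9.94% of Tubb5 molecules in ESC-2i (7.06 to 13.5, 36 of 362), 7.28% in ESC-FCS (4.67 to 10.7, 23 of 316) and 1.09% in NSC (0.133 to 3.89, 2 of 183). Library batches gave 6.75% and 12.6% in ESC-2i, 8.38% and 6.04% in ESC-FCS, and 0.980% and 1.23% in NSC, so the NSC batches lay below all others. The share was 12.8% in the ESC-FCS control cells (9.21 to 17.3) and 22.1% in the ESC-FCS pool (16.4 to 28.5). In the ESC-2i pools it was 3.73% (2.41 to 5.50) and 5.47% (3.94 to 7.38), under the 9.94% of the ESC-2i cells. Among the libraries from serum the share thus ran from 7.28% to 22.1%. In percentage points this was a wider range than between the 3 populations of single cells. The 1.09% of NSC nevertheless lay below every ESC group, of which ESC-2i pool 1 was lowest at 3.73%.

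**Figure D5:**
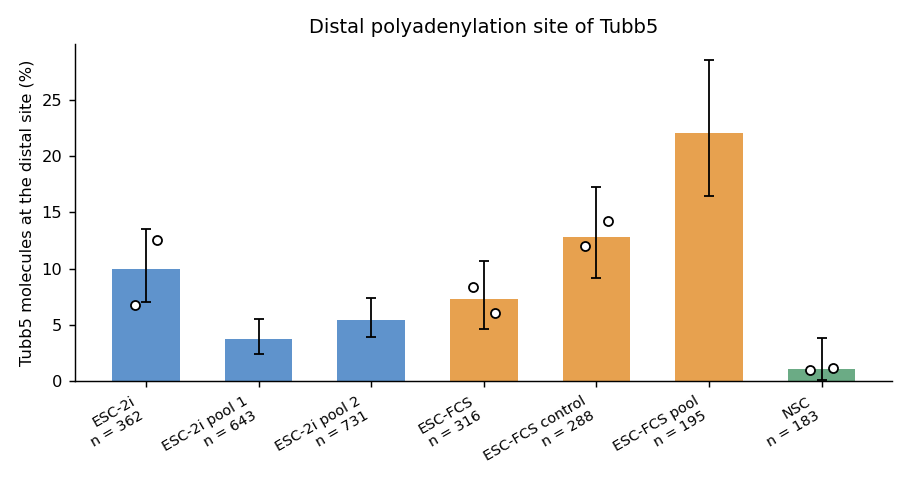
Share of Tubb5 molecules ending at the distal polyadenylation site, in percent, in the single cells, control cells and pools; lines are exact Clopper-Pearson 95% intervals, open circles the 2 library batches and n the number of Tubb5 molecules. NSC has the lowest share, 1.09%, and the ESC-FCS pool the highest, 22.1%.

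The proximal site of Tubb5 took 89.5%, 91.1% and 97.3% of the gene's molecules in the 3 populations, in the order above. A gene was called shifted where the share of its most used site differed by at least 10 percentage points with at least 20 molecules in each population. The Tubb5 difference of 7.77 points between NSC and ESC-2i stayed below this. None of 4 members with enough molecules was shifted in NSC against ESC-2i or against ESC-FCS, and none of 6 in ESC-FCS against ESC-2i, where 24.9%, 23% and 20.4% of all genes tested were. Tubb2b used its main site, 247 bases after the stop codon, for 89.7%, 91.2% and 94.3% of its molecules in the 3 populations. The ESC-FCS pool stood apart, with 3 of 13 Tubb2b molecules at that site and 8 of 13 at the site 474 bases after the stop codon, beside 20 of 21 at the main site in the ESC-FCS control cells.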

How the data were processed

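Per the labels and the study's methods, the authors aligned BATSeq reads to GRCm38, removed reads that map to several places, merged 3′ ends within 12 nt into PA sites and deposited UMI counts and read counts per gene and per site. All 144 single-cell files equal their part of the deposited count table of sites, and 4 of 2111752 entries of the gene table differ from the sum over sites. Mouse symbols and 3′ ends came from GENCODE M21. Spike-in counts are of sense molecules. Cells needed 1000 molecules on genes. A count of 0 was set to 3 counts over the group for a ratio, whose interval came from the exact binomial interval of the split of molecules between the groups. Of the 30-base words in the last 250 bases of the transcripts, 13.1% (Tuba1a), 31.7% (Tuba1b), 41.2% (Tuba1c) and 31.2% (Tubb4b) also occur in other genes or pseudogenes, and reads from these are lost or uncertain.

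The named genes were all members, other tubulin genes with at least 20 molecules, up to 4 genes per list with the largest NSC to ESC-2i ratio, and for 3 members the 3 genes most similar over batches among those with at least 200 molecules. The members, lists and tests were chosen with earlier results of these data known. The variability test was also run on simulated counts. The variability added there was larger than the members' excess over technical noise, so it does not give the power for the members. Alternatives were other cells, scalings, thresholds, single batches and reads. Tools were Python 3.11.15, pandas 2.3.3, SciPy 1.17.1 and statsmodels 0.14.6.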

Additional observations from a re-analysis of the deposited data

How the results depend on the processing

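Of 296 alternative values of the members' log2 ratios, 265 stayed within the counting interval and 31 moved; none of the 13 called ratios changed sign, and 10 alternatives took one under 2-fold. The scaling mattered most: per ERCC spike-in molecule the median log2 ratio of all genes went from -0.05 to -0.35 in NSC against ESC-2i, from 0.05 to -1.30 in NSC against ESC-FCS and from -0.07 to 0.98 in ESC-FCS against ESC-2i. On that scale 1, 0 and 5 members were higher and 3, 4 and 0 lower in these comparisons, of 9, 6 and 9, where 645 and 1492 of 4803, 212 and 2198 of 3600, and 2472 and 172 of 5007 genes were, and Tubb5, not called otherwise, had log2 ratios of -0.0024, -1.55 and 1.55. Tubb2b, at -0.50 in ESC-FCS against ESC-2i, turned to 0.55.

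In NSC against ESC-2i, 1 member in place of 2 was higher in library batch 1 alone and with median-ratio size factors. In NSC against ESC-FCS, 4 were higher with at least 10 molecules. In ESC-FCS against ESC-2i, 0 in place of 1 were higher in library batch 2 alone, with cells weighted equally and with at least 100 molecules, and 2 with reads, with at least 10 molecules and with a fold limit of 1.5. There, 1 in place of 2 was lower in batch 1 alone and with reads, and 0 in batch 2 alone and with at least 100 molecules. Leaving out each ESC-2i pool in turn gave 3 to 5 members higher and 0 to 1 lower in the pools.

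The Tuba1a share of α-tubulin in ESC-FCS was 8.60% with reads, and the Tubb5 distal share in ESC-2i 6.75% in batch 1 alone and 6.79% with reads. Without the variability margin, 2 members in ESC-2i (Tuba1b, Tubb5) and 3 in NSC (Tuba1b, Tubb2b, Tubb5) were called variable, with 115 of 3616 and 342 of 1157 of all genes. Counting antisense ERCC molecules too gave 25 variable genes in NSC in place of 124 of 1157. Cells with at least 2000 molecules gave 27 of 1448, batch 2 alone 33 of 1172, a margin of 0.5 51, all spike-in species 80, and a mean above 0.1 690 of 5492, with 0 members in each. The alternatives for these shares and for antisense molecules were chosen after seeing the data. 1 member was shifted in NSC against ESC-2i in batch 2 alone (Tubb5, 11.8 points) and with reads (Tubb2b), 1 in NSC against ESC-FCS with reads (Tubb2b) and 1 in ESC-FCS against ESC-2i with reads (Tubb2b) and with at least 10 molecules (Tubb6). The causes were not tested. No paired analysis was possible because each population is 1 culture and no test between populations was made.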
